A study of Mus musculus with 11 samples.

Results

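The genes described here make, sort and process the peptide hormones that endocrine cells store in secretory granules. They are the 10 genes Chgb, Cpe, Pam, Pcsk1, Pcsk1n, Scg2, Scg3, Scg5, Scgn and Vgf, chosen by symbol from a table of 52550 genes, and all 10 were found and were abundant enough to test. RNA was sequenced from colonic epithelial cells of 5 CD and 6 FFD mice, 1 library per mouse. All of them were C57BL/6 mice with the genotype RAG1 KO, which lack mature T and B cells and keep innate immune cells. CD mice received a purified diet with 7% cellulose as its only fiber and FFD mice the same diet without cellulose. The diets were given for 4 weeks, after which every mouse of both groups received dextran sulfate sodium (DSS), a polymer that injures the colonic epithelium, at 1.5% in the drinking water for 5 days. No mouse without DSS was sequenced, so the comparison of the diets holds for the inflamed colon. The authors reported that RAG KO mice on CD resisted this colitis better than those on FFD. An effect of the diet and one of more severe injury on FFD therefore cannot be told apart. The comparison addresses whether dietary cellulose affects gene expression of the epithelium during inflammation.

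Enteroendocrine cells are rare cells scattered through the colonic epithelium that release hormones and amines such as the peptides made from proglucagon (Gcg), peptide YY and serotonin. Peptide hormones are made as precursors. Granins gather them into dense-core granules, convertases cut them at pairs of basic residues, carboxypeptidase E removes the basic residues that are left and PAM converts a terminal glycine into an amide. Scgn differs from the other members in that its product, secretagogin, is a calcium sensor of the cytosol and not a granule cargo. Cpe and Pam are also expressed outside endocrine cells.

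The promoters of Chgb, Pcsk1 and Scg2 are shown here because they share a regulatory motif close to the start site, and that of Pam because it rose without holding the motif. RefSeq promoters, from 250 bases before to 50 bases after the start site in GRCm38.p6, were found for 8 of the 10 members, Pam having more than 1 start site. They were not matched for Cpe and Vgf. The full cyclic AMP response element TGACGTCA, which reads the same on both strands, occurred in those of Chgb, Pcsk1 and Scg2, against 1.79% of 32851 promoters of the same length. It began at position -72 in Chgb, -78 in Pcsk1 and -68 in Scg2. Its 5-letter part TGACG, which lies within it and was searched on both strands, was also present in Scg3 and Scg5 and in 20.8% of all promoters. The promoters of Pam, Pcsk1n and Scgn held neither. The TATA box TATAAA (13.6% of all promoters) and the E-box CAGATG (17.2%), both searched on both strands, were not found in these windows. Of the 3 genes with the full element, Chgb rose in FFD mice and Pcsk1 and Scg2 did not pass the test, while Pam, without it, rose. Whether the element bears on the difference between the diets was not tested. The sequences are printed 5′ to 3′, with TGACG or its reverse complement in capitals.
Chgb promoter, chr2:132781392-132781691, plus strand: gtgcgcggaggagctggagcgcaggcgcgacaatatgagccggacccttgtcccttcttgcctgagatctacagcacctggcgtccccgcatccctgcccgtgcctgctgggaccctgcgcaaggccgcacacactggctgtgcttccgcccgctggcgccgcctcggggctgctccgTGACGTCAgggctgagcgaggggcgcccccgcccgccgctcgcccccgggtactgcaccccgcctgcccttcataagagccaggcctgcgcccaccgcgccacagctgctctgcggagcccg
Pcsk1 promoter, chr13:75089607-75089906, plus strand: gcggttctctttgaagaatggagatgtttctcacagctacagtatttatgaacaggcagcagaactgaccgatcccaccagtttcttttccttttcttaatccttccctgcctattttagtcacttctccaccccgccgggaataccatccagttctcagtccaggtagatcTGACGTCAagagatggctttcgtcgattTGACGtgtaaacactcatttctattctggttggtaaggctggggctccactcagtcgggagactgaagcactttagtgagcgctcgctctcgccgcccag
Scg2 promoter, chr1:79439977-79440276, minus strand: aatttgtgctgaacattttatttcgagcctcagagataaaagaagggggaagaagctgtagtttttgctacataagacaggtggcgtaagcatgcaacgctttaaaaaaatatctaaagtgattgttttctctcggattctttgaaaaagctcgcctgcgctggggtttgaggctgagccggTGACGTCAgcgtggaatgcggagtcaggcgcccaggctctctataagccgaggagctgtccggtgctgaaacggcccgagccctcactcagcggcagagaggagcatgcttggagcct
Pam promoter, chr1:98095597-98095896, minus strand: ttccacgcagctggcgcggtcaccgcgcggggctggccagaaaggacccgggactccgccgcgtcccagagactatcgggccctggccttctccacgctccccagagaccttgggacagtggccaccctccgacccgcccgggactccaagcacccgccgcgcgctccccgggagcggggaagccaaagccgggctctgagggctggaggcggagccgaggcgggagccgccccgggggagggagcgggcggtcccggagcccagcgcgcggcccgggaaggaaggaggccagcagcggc

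The total count per mouse ranged from 20853535 to 28588266 on CD and from 10374154 to 27973285 on FFD, lowest in FFD mouse 4. Levels are in CPM, a depth-scaled unit, and were divided by exon length in kb where genes are compared with each other. The depth of each library was multiplied by its TMM factor, so the levels of a library do not add up to 1 fixed total. The TMM factors were 1.03 to 1.08 on CD and 0.893 to 1.05 on FFD. Rag1 was at 0.975 to 1.52 CPM on CD and 0.806 to 1.24 CPM on FFD, and a count for the whole gene cannot check a deletion within it. A number in the titles of the samples was 1 for all CD and 2 for all FFD mice, so a cage or batch that followed it cannot be told apart from the diet. Epithelial genes (Epcam, Krt8, Krt18, Krt19, Krt20, Cdh1 and Vil1) together held 10488 to 12651 CPM on CD and 12193 to 15995 CPM on FFD. By the threshold given below 6 of these 7 rose, as did 18.2% of all tested genes. Without TMM, Epcam (log2 fold change 0.14), Krt8 (0.17) and Krt19 (0.12) did not pass. Krt19 also lost its call in 7 of 11 fits with 1 mouse left out, with no filter (0.28) and with the replicate block (0.27). Of 15 enteric neuron genes, which matter here because neurons also make granins, 5 were tested and none passed, and their sum was 2.88 to 4.32 CPM on CD and 3.08 to 4.59 CPM on FFD, with Hand2 at 0 in every library. Fibroblast and muscle genes summed to 13.7 to 18.2 CPM on CD and 17.1 to 20.7 CPM on FFD. Of these 12 genes 3 were tested, and 1, Tagln, rose, while Col1a1, Col1a2, Col3a1 and Dcn averaged 0.0448 to 0.265 CPM. Macrophage and neutrophil genes summed to 17.5 to 25.7 CPM on CD and 20.1 to 41.7 CPM on FFD, with C1qb and S100a8 of 12 tested genes higher. T and B cell genes summed to 1.15 to 1.84 CPM on CD and 0.705 to 1.56 CPM on FFD, and endothelial genes to 4.34 to 6.25 and 2.84 to 4.46 CPM. Glial genes summed to 2.85 to 3.74 and 1.86 to 2.89 CPM, mostly Gfra3, which averaged 2.33 and 1.51 CPM. It was 1 of 2 tested and fell, with a log2 fold change of -0.63. Mast cell genes summed to 29.1 to 52.1 and 20.1 to 37.7 CPM, and none of 5 tested passed. Most of this sum was Kit, at a mean of 32.4 CPM on CD and 22.8 CPM on FFD. Mcpt1 averaged 2.91 and 2.55 CPM, Cpa3 0.531 and 0.373 CPM and Tpsb2 0.0840 and 0.206 CPM. The part of any of these cells in the results below was not tested.

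Of the 10 members, 3 were higher in FFD mice, 0 were lower and 7 missed the threshold. Those that rose were Cpe, the carboxypeptidase that trims prohormone fragments, Chgb, the granin chromogranin B, and Pam, the amidating enzyme. The threshold was an adjusted p under 0.05 from edgeR's quasi-likelihood test, with Benjamini-Hochberg adjustment over 15044 genes. Of all tested genes 36.8% passed it, 18.2% higher and 18.6% lower. The median log2 fold change was 0.36 over the members and -0.033 over all tested genes, where a positive value means a higher level in FFD mice. In 1 member, Pam, the values of the diets did not overlap, which was the case in 18.5% of all tested genes (8.91% with FFD above and 9.59% with FFD below).

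**Figure D1:**
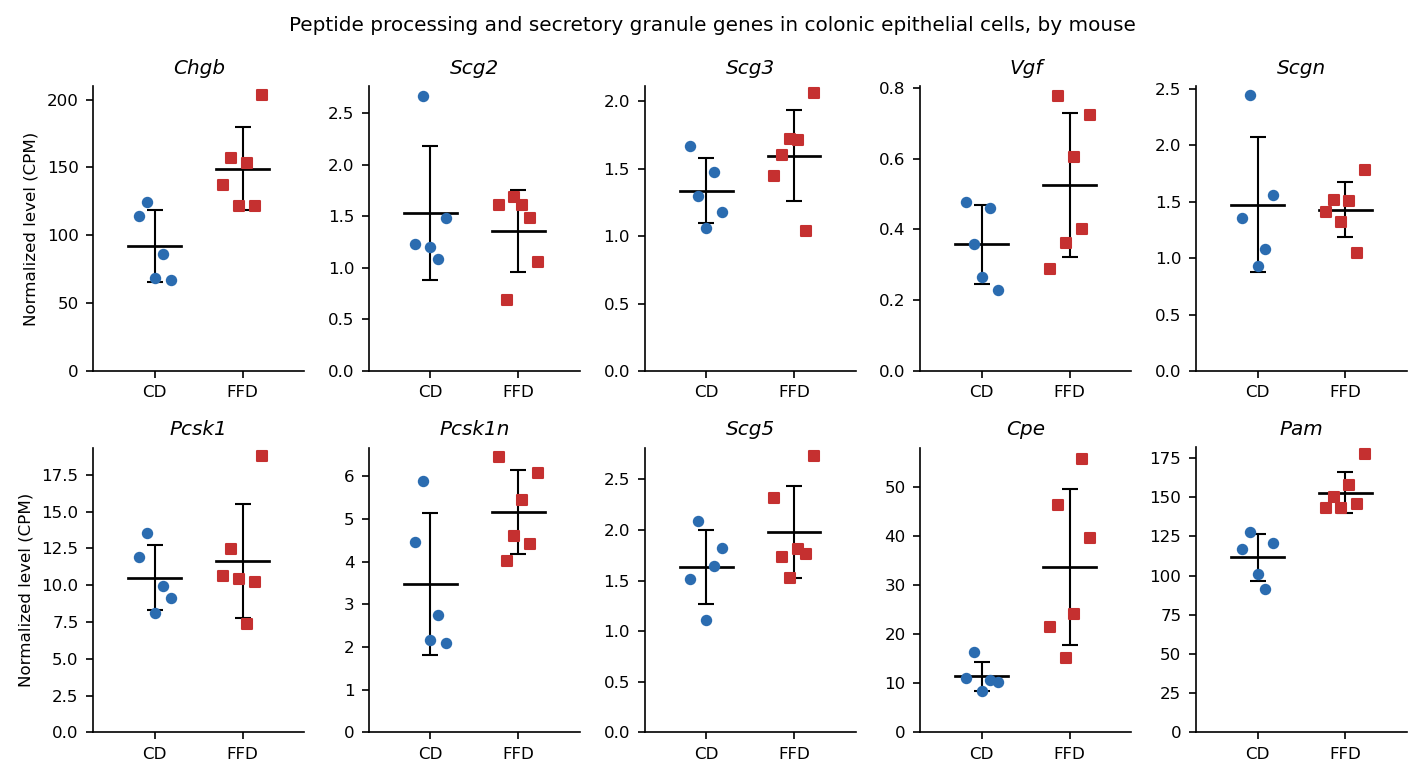
Normalized level (CPM, vertical axes from 0) of the 10 members in the colonic epithelium of RAG KO mice after DSS, on CD (blue circles, n = 5) or FFD (red squares, n = 6), 1 point per mouse, with mean and SD in black. Every FFD mouse lies above every CD mouse in Pam, FFD mouse 3 lies below CD mouse 2 in Cpe, and the values of the diets overlap in the members that did not pass.

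**Figure D2:**
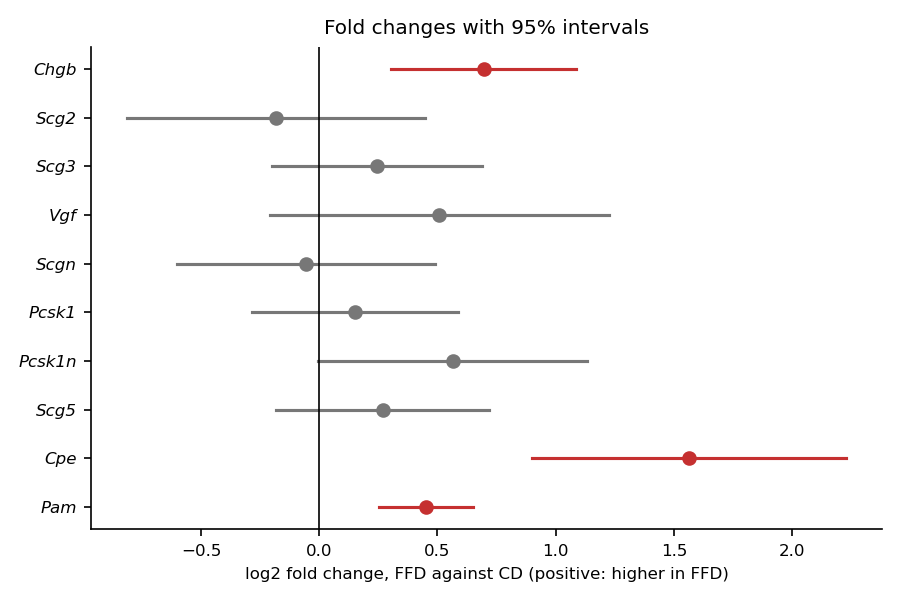
log2 fold change of each member in FFD against CD mice (horizontal axis), with the 95% interval from the edgeR fit as a line and members past an adjusted p of 0.05 in red. The intervals of Chgb, Cpe and Pam lie above 0 and those of the other members reach to or below it.

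Among the granins, proteins that aggregate in the secretory pathway and form the granule core, Chgb rose and Scg2, Scg3 and Vgf did not pass. Chgb, on chromosome 2 of GRCm38 from 132781278 to 132795079, was at 114, 124, 68.2, 86.1 and 66.8 CPM in CD mice 1 to 5 and at 121 to 203 CPM (median 145) in FFD mice. CD mouse 2 lay just above FFD mice 3 and 5, the lowest of their group, and the groups were otherwise apart. The means were 91.9 ± 26.4 CPM on CD (SD, n = 5) and 149 ± 30.5 CPM on FFD (SD, n = 6), a log2 fold change of 0.69 with a standard error of 0.18 (adjusted p = 0.010 from edgeR). Chgb was among the more abundant genes of the libraries, at the 89.1th percentile of the mean level over all tested genes. Scg2, the precursor of secretoneurin on chromosome 1 from 79434669 to 79440120, was at 1.23, 2.66, 1.20, 1.08 and 1.48 CPM in CD mice and at 0.692 to 1.68 CPM (median 1.55) in FFD mice. CD mouse 2 had the highest value of all mice and FFD mouse 2 the lowest. The log2 fold change of Scg2 was -0.18 (95% interval -0.81 to 0.45, adjusted p = 0.65 from edgeR), and without CD mouse 2 it was 0.13. Scg3, which tethers granin aggregates to the granule membrane and lies on chromosome 9 from 75643189 to 75684056, was at 1.34 ± 0.242 CPM on CD (SD, n = 5) and 1.60 ± 0.340 CPM on FFD (SD, n = 6). Its log2 fold change was 0.24 (95% interval -0.20 to 0.69) and did not pass. Vgf, a precursor of several neuropeptides on chromosome 5 from 137026392 to 137033351, was the least abundant member with 6 to 18 counts per mouse. It was at 0.358 ± 0.112 CPM on CD (SD, n = 5) and 0.526 ± 0.204 CPM on FFD (SD, n = 6) (log2 fold change 0.51, 95% interval -0.21 to 1.224). The calcium sensor gene Scgn, on chromosome 13 from 23953456 to 23991214, was at 1.47 ± 0.595 CPM on CD (SD, n = 5) and 1.43 ± 0.246 CPM on FFD (SD, n = 6). CD mouse 2 held the highest value, 2.45 CPM, and the log2 fold change of -0.058 (95% interval -0.60 to 0.49) became 0.22 without it and 0.023 without FFD mouse 5.

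The convertase Pcsk1 and the granule proteins that act on convertases did not pass the test. Pcsk1 cuts proglucagon and other precursors in enteroendocrine cells and lies on chromosome 13 from 75089826 to 75134861. It was at 11.9, 13.5, 8.11, 9.95 and 9.11 CPM in CD mice 1 to 5 and at 7.35 to 18.8 CPM (median 10.5) in FFD mice. FFD mouse 6 had the highest value and FFD mouse 4, the library with the lowest depth, the lowest with 73 counts. The log2 fold change was 0.15 (standard error 0.20, 95% interval -0.28 to 0.59, adjusted p = 0.58 from edgeR), and without FFD mouse 6 it was -0.029. Pcsk1n, whose product proSAAS inhibits this convertase, was at 4.46, 5.90, 2.17, 2.76 and 2.09 CPM in CD mice and at 4.02 to 6.45 CPM (median 5.02) in FFD mice. CD mice 1 and 2 lay within the range of the FFD mice and the other 3 below it. Its log2 fold change of 0.56 (95% interval -0.0054 to 1.13) did not pass (adjusted p = 0.11 from edgeR), while without CD mouse 2 it was 0.86 and passed (adjusted p = 0.017). Across the alternatives the adjusted p of Pcsk1n ranged from 0.017 to 0.22. Pcsk1n lies on chromosome X from 7919822 to 7924410, and 135 bp of its exons overlap those of Eras on the opposite strand. Scg5 encodes a chaperone of the convertase Pcsk2 and lies on chromosome 2 from 113776362 to 113829121. It was at 1.63 ± 0.365 CPM on CD (SD, n = 5) and 1.98 ± 0.453 CPM on FFD (SD, n = 6) (log2 fold change 0.27, 95% interval -0.18 to 0.72). Its client Pcsk2 averaged 0.679 CPM on CD and 0.460 CPM on FFD (adjusted p = 0.35 from edgeR).

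Both enzymes that finish the peptides after cleavage rose. Cpe, on chromosome 8 from 64592542 to 64693054, was at 11.1, 16.5, 8.47, 10.7 and 10.3 CPM in CD mice 1 to 5. In FFD mice 1 to 6 it was at 21.5, 46.2, 15.2, 24.1, 55.6 and 39.6 CPM. FFD mice 2, 5 and 6 lay far above the others, and FFD mouse 3 lay within the range of the CD mice. The mean rose from 11.4 ± 2.99 CPM (SD, n = 5) to 33.7 ± 15.9 CPM (SD, n = 6), a log2 fold change of 1.56 with a standard error of 0.31 (adjusted p = 0.0027 from edgeR), which is 2.96-fold. The coefficient of variation of Cpe was 26.2% in CD and 47.0% in FFD mice. Pam, on chromosome 1 from 97795114 to 98095646, was at 117, 128, 101, 91.5 and 121 CPM in CD mice and at 143 to 177 CPM (median 148) in FFD mice. All 6 FFD mice lay above all 5 CD mice. The log2 fold change of Pam was 0.45 with a standard error of 0.092 (adjusted p = 0.0031 from edgeR), and the coefficient of variation was 13.3% in CD and 8.66% in FFD mice. Its exons share 188 bp with B230216N24Rik on the same strand. The intervals of Cpe (0.90 to 2.23) and Pcsk1 did not overlap, but the difference between members was not tested. Fibroblasts and muscle cells also express Cpe and Pam. The sums of their marker genes, given above, overlapped between the diets and consisted mostly of Tagln (8.67 CPM on CD and 10.6 CPM on FFD, higher) and Pdgfrb (5.06 and 6.32 CPM, not passed), while Acta2 was at 0.722 and 0.550 CPM and Myh11 at 0.283 and 0.182 CPM. Their part in the rise of Cpe and Pam was not tested.

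Compared per kb of exon, Chgb was the most abundant member in both diets and Vgf the least. In CD mice Chgb was at 33.6 ± 9.62 CPM per kb, followed by Pam (9.39 ± 1.25), Cpe (4.37 ± 1.15) and Pcsk1 (1.88 ± 0.390), and the ranges of these 4 genes over the mice did not overlap (SD, n = 5). Pcsk1n (1.59), Scg5 (1.04), Scgn (0.911), Scg2 (0.609) and Scg3 (0.488) followed, each overlapping the range of its neighbors in this order. Vgf, at 0.120 ± 0.0376 CPM per kb (SD, n = 5), lay below the range of Scg3. In FFD mice Chgb was at 54.4 ± 11.1 CPM per kb (SD, n = 6). Cpe reached 12.9 ± 6.08 CPM per kb there, a range that overlapped that of Pam, also at 12.9 ± 1.11 (SD, n = 6). Pcsk1n, at 2.36 CPM per kb, and Pcsk1, at 2.08, changed places in the order, with overlapping ranges in both diets. In bulk RNA, more cells of a type and more RNA per cell cannot be told apart.

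**Figure D3:**
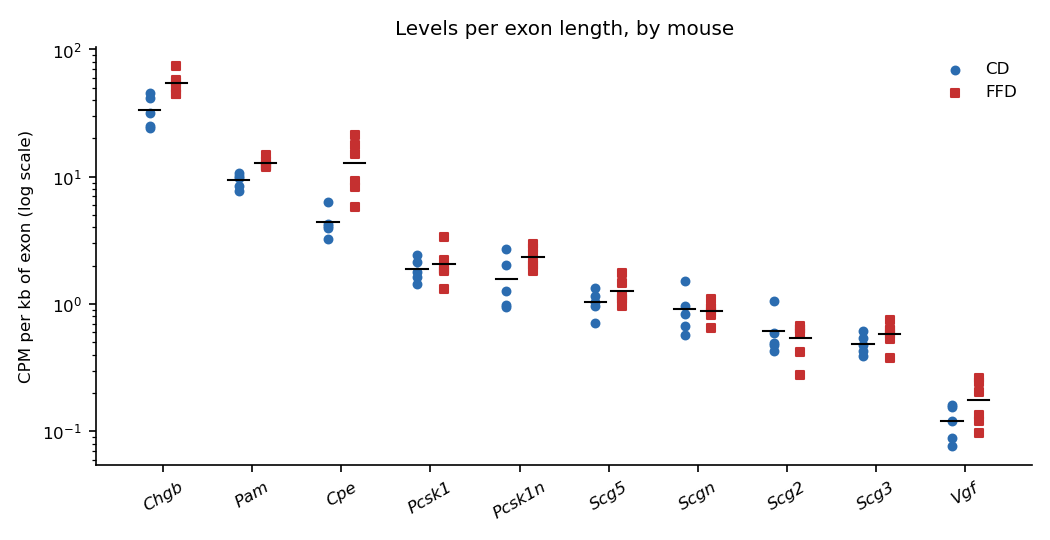
Level of each member per kb of exon (vertical axis, log scale) in CD (blue circles, n = 5) and FFD (red squares, n = 6) mice. Points are mice, bars are group means and genes stand in the order of the CD mean. Chgb lies highest at 33.6 CPM per kb in CD and 54.4 in FFD mice, and Cpe comes level with Pam in FFD mice.

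Within a diet, most members followed Chga, chromogranin A, the granin by which endocrine cells are commonly marked. For every gene, the log2 level of each mouse was taken relative to the mean of its diet, so that the difference between the diets plays no part. Of 12876 genes at 1 CPM or more outside the members, Chga had the profile most like the mean profile of the members over the 11 mice (r = 0.95, rho = 0.92), followed by Dpyd, H2-Ke6, Tph1 and App (r = 0.94 each, rho 0.84 to 0.95). These are descriptions of 11 libraries of unequal depth, chosen for their likeness, and carry no test. The r of single members with Chga was 0.12 to 0.95 with a median of 0.71, and was above 0 in all 10. It was 0.95 for Chgb, 0.80 for Pcsk1n, 0.77 for Pcsk1, 0.75 for Scgn and 0.72 for Scg3, and it was lower for Pam (0.59), Cpe (0.36) and Scg2 (0.12). Of the 45 pairs of members, 40 had an r above 0. The highest was that of Chgb with Pcsk1n (0.82) and the lowest that of Scg2 with Vgf (-0.53), both of which had few counts. The share of all tested genes with an r above 0 was not determined. Nothing particular to the members is read from these counts. CD mouse 2 was the highest CD mouse in 8 of the 10 members and FFD mouse 6 the highest FFD mouse in 6, while CD mouse 3 was the lowest CD mouse in 5.

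**Figure D4:**
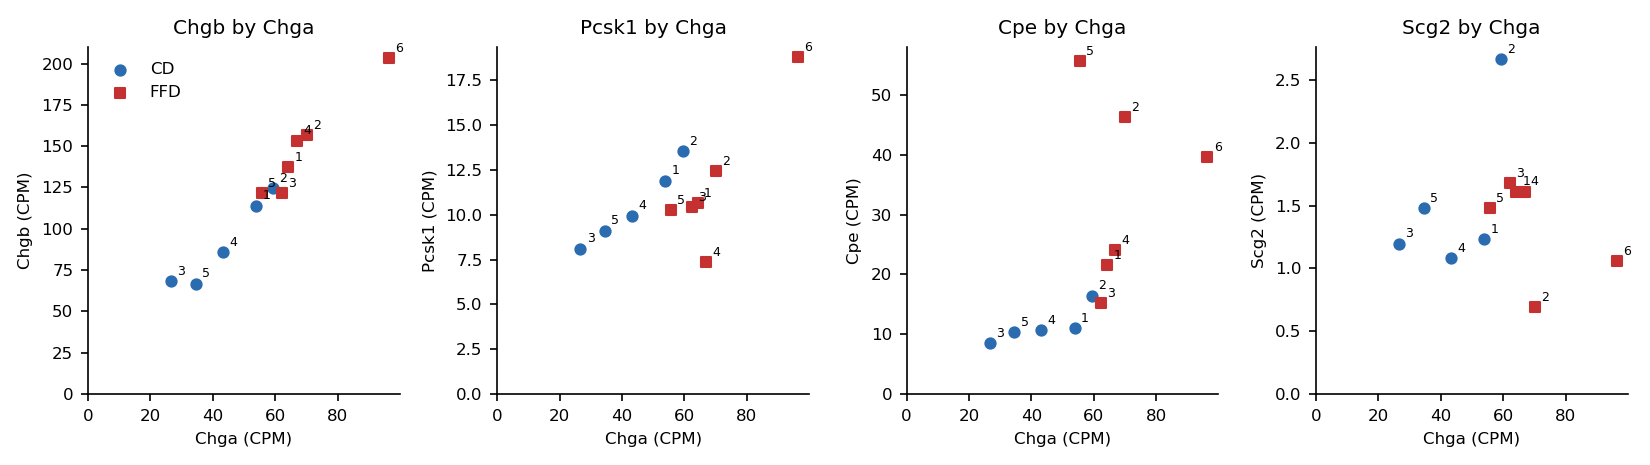
Level of Chgb, Pcsk1, Cpe and Scg2 (vertical axes, CPM) against that of Chga (horizontal axis, CPM) in CD (blue circles, n = 5) and FFD (red squares, n = 6) mice, with mouse numbers. Chgb lies along 1 line in both diets, FFD mice 2, 5 and 6 lie above the other mice in Cpe, and Scg2 shows no such line.

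The ratio of Chgb to Chga had nearly the same mean in both diets. Chga itself was at 43.5 ± 13.5 CPM on CD (SD, n = 5) and 69.3 ± 14.2 CPM on FFD (SD, n = 6), a log2 fold change of 0.67 (standard error 0.19, adjusted p = 0.016 from edgeR). Per 100 reads of Chga there were 214 ± 24.7 reads of Chgb (SD, n = 5) in CD and 215 ± 11.97 (SD, n = 6) in FFD mice. For Pcsk1 there were 24.9 ± 3.49 reads, with 22.1 to 30.4 over the CD mice, against 16.7 ± 2.98, with 10.99 to 19.5 over the FFD mice. For Scgn there were 2.51 to 4.51 reads on CD and 1.85 to 2.26 on FFD. The ratios of these 2 of the 10 members lay lower in all FFD than in all CD mice, no more often than among all tested genes, of which 28.0% did so. No member lay above without overlap, and 0.0532% of all tested genes did. The ratio of Cpe to Chga was 20.5 to 31.8 on CD and 24.4 to 100 on FFD. Gcg, the proglucagon gene and a substrate of Pcsk1, was at 71.0 ± 16.6 CPM on CD (SD, n = 5) and 84.8 ± 22.3 CPM on FFD (SD, n = 6) (adjusted p = 0.28 from edgeR). Per 100 reads of Gcg there were 14.97 ± 1.49 reads of Pcsk1 (SD, n = 5) in CD and 13.8 ± 3.06 (SD, n = 6) in FFD mice, with overlapping ranges. For Chgb there were 99.2 to 145 reads per 100 of Gcg in CD and 147 to 222 in FFD mice, with no overlap, which held for 0.738% of all tested genes, and for 3.76% in the lower direction. Chgb was the only one of the 10 members without overlap in this ratio, and both genes were chosen as denominators with their values known.

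Genes of the wider machinery of peptide secretion were called in both directions, as were 36.8% of all tested genes (18.2% higher and 18.6% lower), and nothing particular to a list is read from its count. The cells in which the listed genes are expressed were not determined. Among 15 tested convertases and modifying enzymes, 5 rose and 2 fell, with a median log2 fold change of -0.035. The rises were Pcsk5 (0.55), Ctsl (0.39), Pcsk7 (0.31), Furin (0.29) and Cpd (0.27), a carboxypeptidase of the trans-Golgi network. Pcsk7 and Furin are convertases of the constitutive pathway, which works outside granules. The convertase Pcsk6 (-1.09) was among those that fell. Pcsk5 lost its call without CD mouse 2 (0.54), 3 (0.49) or 4 (0.53) or FFD mouse 2 (0.52), and Cpd with the replicate block (0.29). Scaled by total counts without TMM, 0 of this list rose and 5 fell. Among 14 tested genes of granule cargo, membrane and biogenesis, 7 rose and 1 fell, with a median of 0.26. The rises included Slc18a1, the vesicular monoamine transporter of endocrine cells (0.76), the granule membrane protein Ptprn (0.79), Ccdc186, which acts in granule maturation (0.67), and the chaperone Dnajc5 (0.49). Hid1, needed for the maturation of granules, had a log2 fold change of -0.48 and lost its call without CD mouse 2 (-0.35), 3 (-0.48), 4 (-0.51) or 5 (-0.48) or without FFD mouse 2 (-0.41), 5 (-0.41) or 6 (-0.42). With the replicate number as a block 4 genes of this list rose and 0 fell, and Ptprn (0.69) no longer passed.

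Of 28 tested genes of granule docking and exocytosis, 7 rose and 1 fell, with a median of 0.11. Rab27a, a GTPase of docking (0.74), the disassembly factor Nsf (0.52) and the priming factor Cadps2 (0.26) were among those that rose. On CD, Nsf averaged 70.2 CPM and Cadps2 63.4 CPM, above Chga at 43.5 CPM, and Rab27a averaged 30.9 CPM, below it. The part of endocrine cells in these rises was not tested. Rph3al had a log2 fold change of -0.42 and lost its call without CD mouse 1 (-0.41), 2 (-0.33), 3 (-0.36) or 4 (-0.42) or FFD mouse 2 (-0.39) or 5 (-0.38). Without TMM 4 genes of this list rose and 4 fell, Cadps2 (0.10) no longer passing, and with the replicate block 4 rose. Of 19 tested enteroendocrine transcription factors 0 rose and 4 fell, with a median of 0.040, beside 18.6% lower among all tested genes. These were Neurog3 (-2.61), which starts the endocrine fate and had 0 to 0.441 CPM in FFD mice, Sox4 (-0.86), Foxa2 (-0.69) and Rfx3 (-0.40), which lost its call without CD mouse 1 (-0.33) or CD mouse 3 (-0.35), with no filter (-0.39) and with the replicate block (-0.38). On CD, Sox4 averaged 41.6 CPM and Foxa2 26.2 CPM, against 5.59 CPM for Rfx3 and 1.12 CPM for Neurog3. Whether the falls of Sox4 and Foxa2 lie in endocrine cells was not tested. Neurod1 and Pax6, which mature endocrine cells keep, averaged 2.22 and 0.698 CPM on CD. On FFD their means were 2.60 and 0.765 CPM, and neither passed. Insm1, a further factor of this list, had the opposite sign (log2 fold change -0.37). Its mean was 3.41 CPM on CD against 2.62 on FFD, and it did not pass either. Of 10 tested hormone and amine genes, 3 rose and 0 fell, with a median of 0.31. These were Tac1 (2.78), the precursor of substance P, an amidated peptide, the serotonin synthesis gene Tph1 (1.17) and Cck (0.47), which lost its call without CD mouse 1 (0.47), 3 (0.49), 4 (0.47) or 5 (0.45) or FFD mouse 2 (0.48), 4 (0.48), 5 (0.51) or 6 (0.33). Cck also did not pass without TMM (0.32), by limma-voom (0.44), with no filter (0.47) or with the replicate block (0.34). The log2 fold change of Nts was 0.77 with an adjusted p of 0.11 by edgeR, and 1.19 without CD mouse 1, where it passed. Nts also passed with the replicate block (0.64). FFD mouse 5 had the highest level of both Tac1 (463 CPM) and Cpe, and FFD mouse 3 the lowest of both (59.2 CPM of Tac1) among FFD mice. Among CD mice, mouse 2 had the highest level of Cpe (16.5 CPM) but the lowest of Tac1 (15.7 CPM). Whether Cpe and Tac1 vary together was not tested.

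**Figure D5:**
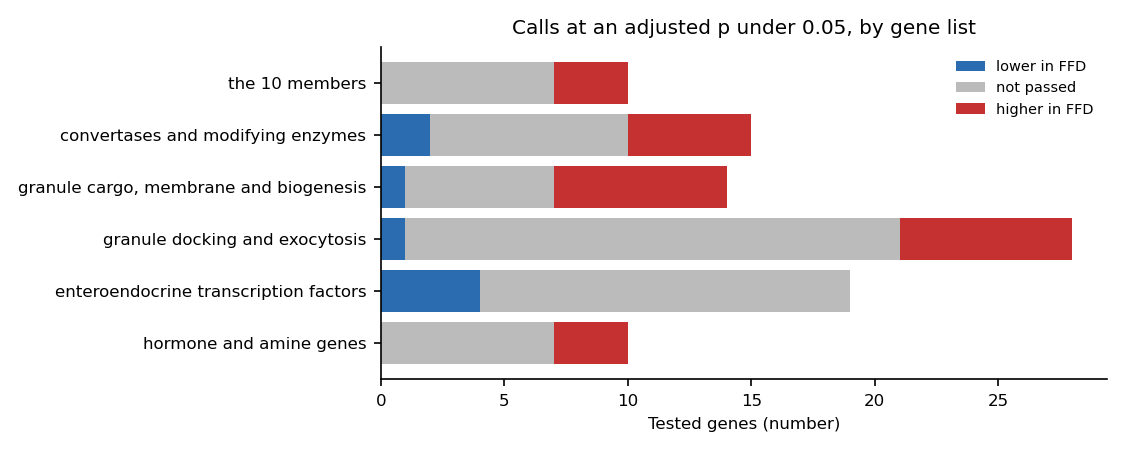
Number of tested genes (horizontal axis) among the members and on each list of related genes split into falls on FFD (blue), genes that did not pass (gray) and rises on FFD (red) at an adjusted p under 0.05 from edgeR. Each granule list holds 7 rises and 1 fall, and the transcription factor list holds 4 falls and no rise. Among all tested genes 18.2% rose and 18.6% fell, and nothing particular to a list is read from its count. Without TMM the docking and exocytosis list holds 4 rises and 4 falls.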

How the data were processed

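Colonic epithelial cells were released with DTT and EDTA and separated on Percoll, and polyadenylated RNA (integrity above 8) was made into sequencing libraries. The authors trimmed and mapped single reads of 59 bp to GRCm38 with the Qiagen CLC Workbench and deposited 1 raw count per gene and mouse. FastQC, DESeq2 1.22.2 and R 3.5.1 are listed in the processing notes of the submitters. The sources used here name no annotation release, strand setting or handling of multi-mapping reads, so genes with overlapping exons are uncertain.

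Counts were filtered with filterByExpr (minimum count 10, minimum total 15), normalized by TMM and tested for diet with the quasi-likelihood test of edgeR 4.0.16 in R 4.3.3, with Benjamini-Hochberg adjustment over 15044 genes. Intervals of fold changes are 95% intervals from this fit. The members and lists, and the ratios to Chga and Gcg, were chosen with earlier results of these data known. Named list genes are up to 4 per list with the smallest p and those changed against the majority, and some of these are not reported here. Other genes, such as Pcsk2, Pcsk5, Ctsl, Cpd, Neurod1, Pax6 and Gcg, were named after their values were seen. Loci and exon lengths come from GENCODE for GRCm38. All pairs of mice of 1 diet differed beyond sampling noise, with a lowest chi-square over its degrees of freedom of 12.6. The scripts were tested on simulated data. P-values set the difference between the diets against the spread between mice of 1 experiment. DESeq2 1.42.0, limma-voom (limma 3.58.1), other size factors, other filters (none, or at least 1 CPM in 5 mice), a replicate block and leaving out each mouse were the alternatives.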

Additional observations from a re-analysis of the deposited data

Results flagged for a closer look

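In 1 of 20 groups searched (10 members in each diet), a single mouse lay far from the rest. Scg2 in CD mouse 2 was at 2.66 CPM, with the next CD mouse at 1.48 CPM, a gap of 0.749 of the range of the group. The criterion is a 95% critical value, by which chance picks out about 1 in 20 groups. The mouse had 74 counts of Scg2, and without it the log2 fold change of Scg2 was 0.13.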

How the results depend on the processing

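Chgb, Cpe and Pam were higher in FFD mice and passed the threshold under all 18 alternatives, with log2 fold changes of 0.54 to 0.84, 1.36 to 1.74 and 0.30 to 0.52 and adjusted p-values of at most 0.028, 0.0091 and 0.016. The number of members that rose was 3 to 4 with 1 mouse left out, and 0 fell. The fourth was Pcsk1n without CD mouse 2 (0.86). Members that did not pass changed sign in Pcsk1 without TMM (-0.0061), with the replicate block (-0.029) and without FFD mouse 6 (-0.029, with 1 mouse left out -0.029 to 0.27), in Scg2 without CD mouse 2 (0.13), and in Scgn without CD mouse 2 (0.22) or FFD mouse 5 (0.023, with 1 mouse left out -0.17 to 0.22). The cause was not tested. Vgf was not tested with the strict filter or without FFD mouse 2, 4 or 6. Without TMM the median of all genes moved by -0.15 on the log2 scale, 1636 genes were higher and 4863 lower (2740 and 2792 with TMM), 0 convertases and modifying enzymes rose and 5 fell, 2 genes of the granule cargo list fell, and 4 docking and exocytosis genes rose and 4 fell. With the strict filter 1 convertase list gene fell. The labels do not say whether mice with the same replicate number belong together. The deviations of same-numbered mice correlated at -0.28 to 0.23, and 2 of 5 CD mice correlated best with the FFD mouse of their own number. With so few pairs and both signs among them, these values cannot decide it. With the replicate block 1829 genes were lower, 4 granule cargo genes rose and 0 fell, and 4 docking and exocytosis genes rose. With 1 mouse left out, 2281 to 3086 genes were higher and 1983 to 2993 lower. The counts then ranged from 4 to 5 up and 2 to 3 down for convertases, 5 to 7 up and 0 to 1 down for granule cargo, 6 to 8 up and 0 to 1 down for docking and exocytosis, 3 to 4 down for transcription factors and 2 to 3 up for hormones. Vgf, Scg2, Scg3, Scg5 and Scgn had 6 to 74 counts per mouse, with standard errors of 0.21 to 0.33 on the log2 scale. The standard errors were 0.092 to 0.31 for Pam, Chgb, Pcsk1, Pcsk1n and Cpe, of which Pcsk1n had 49 to 164 counts per mouse. What sets these standard errors was not tested.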
